A study of Homo sapiens with 6 samples.

Results

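The cadherins and non-clustered protocadherins described here are 53 protein-coding genes out of 60554 gene identifiers counted, of which 19664 are protein-coding. They were chosen by symbol in GENCODE release 29: every numbered CDH, CDHR, PCDH and CELSR gene, FAT1 to FAT4, DCHS1, DCHS2 and CLSTN1 to CLSTN3. Of these, 36 had enough reads to be tested and 17 did not. The RNA came from Daoy, an established human line of medulloblastoma, a cerebellar tumour, which the labels call a brain cancer. The ZFmut group (3 libraries) received lentivirus carrying ZBTB7B with the substitution R363L in its zinc-finger domain, and the WT group (3 libraries) received lentivirus carrying wild-type ZBTB7B. Cells of both groups thus overexpressed a form of ZBTB7B, a zinc-finger transcription factor best known in T cells, on top of the line's own gene. Both groups were transduced at a multiplicity of infection of 15 and incubated for 72 hr. Libraries without a transgene were not analysed here, so each difference is between the mutant and the wild-type protein and not from the untransduced state. The promoter that drives the transgene is not given in the sources used here. Nothing states that replicates were separate cultures. The p-values therefore cover the spread among these libraries only, and part or all of it may be technical.

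Cadherins are membrane proteins whose extracellular repeats bind calcium and hold cells together, mostly by pairing with the same cadherin on a neighbouring cell. Classical cadherins (type I and type II) bind catenins inside the cell, which link the junction to actin. Non-clustered protocadherins adhere more weakly and are known for axon guidance and synapse formation, the FAT and Dachsous proteins bind each other across cells, CELSR proteins serve planar cell polarity, and calsyntenins act at synapses and in axonal transport. In the developing cerebellum, CDH2 (N-cadherin) is the main classical cadherin of granule neuron progenitors.

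Gene counts per library were 22236214 to 102730428 in ZFmut and 28429913 to 56873989 in WT. ZBTB7B itself, transgene and own gene counted together, had 555, 547 and 627 CPM (library-scaled read counts) in ZFmut, against 899, 863 and 951 CPM in WT. Its level was 1.57-fold lower in ZFmut (log2 difference -0.65 ± 0.06 (SE), edgeR adjusted p = 1.39e-06), so the amount of ZBTB7B RNA moved with the groups and cannot be told apart from the substitution. Reads across the substituted base were not analysed here.

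For the called members with a single start site in RefSeq's promoter table (GRCh38.p14), the bases before the start are shown for the members of smallest adjusted p in each direction, so that the sequence ahead of genes that moved in opposite directions can be compared. PCDH7 and PCDH8 were lower in ZFmut, and PCDH1 and CLSTN2 were higher. Each run is on the gene's strand, 5′ to 3′, and ends at the base before the start. The PCDH1 run lies inside that gene's GENCODE span (141853111 to 141879246), so it precedes an internal start and not the outer end of the gene counted. Capitals mark E-boxes (CANNTG), the motif bound by the SNAI, ZEB and TWIST factors described later.
PCDH7, chr4:30720119-30720368, plus strand: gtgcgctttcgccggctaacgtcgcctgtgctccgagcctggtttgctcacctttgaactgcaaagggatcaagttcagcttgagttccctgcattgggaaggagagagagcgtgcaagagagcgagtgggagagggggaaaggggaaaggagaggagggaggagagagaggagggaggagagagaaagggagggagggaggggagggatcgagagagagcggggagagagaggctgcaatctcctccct
PCDH8, chr13:52848641-52848890, minus strand: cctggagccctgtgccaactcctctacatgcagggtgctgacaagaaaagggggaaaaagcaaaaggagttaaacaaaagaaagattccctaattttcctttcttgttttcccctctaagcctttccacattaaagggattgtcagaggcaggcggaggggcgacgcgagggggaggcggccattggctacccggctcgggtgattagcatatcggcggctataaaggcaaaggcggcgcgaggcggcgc
PCDH1, chr5:141869628-141869877, minus strand: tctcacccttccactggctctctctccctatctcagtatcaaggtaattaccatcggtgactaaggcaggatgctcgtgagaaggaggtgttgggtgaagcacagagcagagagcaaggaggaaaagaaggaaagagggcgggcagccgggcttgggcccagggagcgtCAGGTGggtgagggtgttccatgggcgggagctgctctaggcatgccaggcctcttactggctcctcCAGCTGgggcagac
CLSTN2, chr3:139934935-139935184, plus strand: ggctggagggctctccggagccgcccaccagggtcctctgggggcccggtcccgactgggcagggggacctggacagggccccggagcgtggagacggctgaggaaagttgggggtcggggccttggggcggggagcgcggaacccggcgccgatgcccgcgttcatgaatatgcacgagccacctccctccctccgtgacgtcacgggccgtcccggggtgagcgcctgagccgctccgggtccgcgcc

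These windows hold 59.6% GC and 10 CpG for PCDH7, 54.8% and 14 for PCDH8, 59.2% and 6 for PCDH1, and 74.8% and 27 for CLSTN2. CANNTG, which reads the same on both strands, was found only in the PCDH1 window among these 4 windows, at positions -81 and -14, counted back from -1 at the base before the start. The one at -81 is also the match to CACCTG on either strand, a motif that CANNTG contains. Outside these windows, CACCTG also lay ahead of a start of CDH4, CDHR2 and CLSTN3, which were lower. The same holds for CDH23, which was higher, and PCDH15, which was not tested, so the motif did not divide the members by direction. Over all 35 members matched in the table, with 53 start sites, 28 windows held CANNTG (52.8%, against 61.8% of 35116 promoters in the table), 6 held CACCTG (11.3%, against 17.5%) and 19 held GGGCGG on either strand, the core of a GC box (35.8%, against 42.6%). CDH1, CDH3, CDH11, CDH13, CDH22, CDH24, CELSR1, DCHS1, FAT4 and PCDH10 were not among the members matched. These matches describe letters in a window and are not binding sites.

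Of the 36 members tested, 5 were higher in ZFmut, 15 were lower and 16 were not called (13.9% and 41.7% called; over all 18683 genes tested 17.2% were called higher and 18.4% lower). A gene is called where the adjusted p of edgeR's quasi-likelihood test, over all genes tested, is under 0.05. Among the 14658 protein-coding genes tested, the class to which all members belong, 2891 were called higher and 3087 lower. Both shares are larger in this class than over all genes tested, the background given for the lists below. The lower members were CDH1, CDH3, CDH4, CDH18, CDH22, CDH24, CDHR2, PCDH7, PCDH8, PCDH9, PCDH10, FAT4, CELSR1, CELSR2 and CLSTN3. The higher ones were CDH13, CDH23, PCDH1, DCHS1 and CLSTN2. The ZFmut and WT libraries did not overlap for all 5 higher members and for 14 of the 15 lower ones, the exception being PCDH9. Counting members not called as well, 7 members had every ZFmut library above every WT library and 17 had every ZFmut library below (background 22.8% and 24.4% of all genes tested). At a difference of at least 1.5-fold, 3 members were higher and 7 were lower (background 4.92% and 5.89%). The median log2 difference was -0.18 over the tested members and -0.0041 over all genes tested. These libraries are bulk RNA, in which fewer cells that express a gene and less RNA per cell cannot be told apart.

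**Figure D1:**
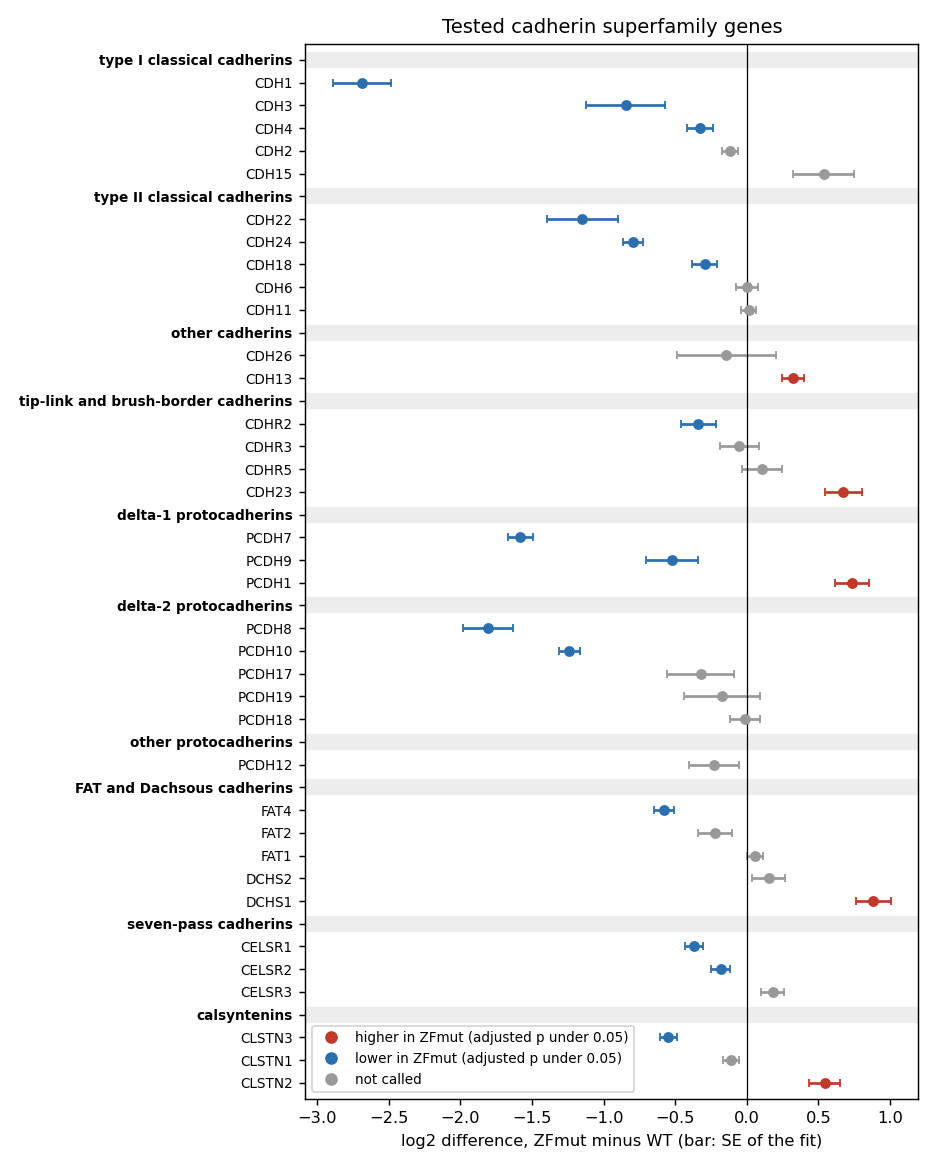
Log2 difference (ZFmut minus WT) of each of the 36 tested members with its standard error, grouped by subfamily, with members called higher in red, lower in blue and not called in grey. CDH1 lies farthest to the left at -2.69, and DCHS1 farthest to the right at 0.88.

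Type I classical cadherins form the classical adherens junction, and all 5 were tested: 3 were lower, none was higher and 2 were not called. The counts of this and the later subfamilies rest on at most 5 tested genes each. Over all genes tested, 17.2% were called higher and 18.4% lower. CDH1 (E-cadherin, the epithelial type I cadherin; ENSG00000039068.18, chromosome 16, 68737225 to 68835548, plus strand, GRCh38) had 0.491, 0.501 and 0.422 CPM in ZFmut, against 3.28, 2.99 and 2.47 CPM in WT. Every ZFmut library was far below the lowest WT library, although the level was low in both groups: 11, 12 and 43 reads in ZFmut and 95, 170 and 78 reads in WT. CDH1 was 6.44-fold lower in ZFmut (log2 difference -2.69 ± 0.20, edgeR adjusted p = 1.67e-07), and its log2 difference stayed between -2.78 and -2.55 in the 14 alternative fits that could test it, since it does not pass the stricter low-count filter. CDH3 (P-cadherin), whose last base is 14.6 kb ahead of the first base of CDH1, had 0.446, 0.250 and 0.432 CPM in ZFmut, against 0.760, 0.721 and 0.665 CPM in WT. The groups did not overlap, on 6 to 44 reads per library, and the fold was 1.80 lower (log2 difference -0.84 ± 0.28, edgeR adjusted p = 0.0267).

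The call on CDH3 was not stable. Its adjusted p was 0.0557 without the low-count filter and 0.140 in DESeq2. Leaving out 1 library gave 0.0717 without ZFmut replicate 2, 0.0644 without ZFmut replicate 3, 0.0773 without WT replicate 1, 0.0864 without WT replicate 2 and 0.0548 without WT replicate 3.

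CDH2 (N-cadherin, the neural and mesenchymal type I cadherin) was abundant, with 148, 136 and 144 CPM in ZFmut, against 160, 148 and 156 CPM in WT. All ZFmut libraries were below all WT libraries, but the highest ZFmut and lowest WT libraries nearly met, and it was not called (log2 difference -0.12 ± 0.05, edgeR adjusted p = 0.109). CDH4 (R-cadherin, of retina and brain) had 19.2, 22.9 and 25.0 CPM in ZFmut, against 29.0, 26.1 and 30.6 CPM in WT. It was 1.26-fold lower (log2 difference -0.33 ± 0.09, adjusted p = 0.0110), a call that was lost without WT replicate 3 (-0.28, adjusted p = 0.0554). CDH15 (M-cadherin, of muscle precursors) had 0.982, 1.13 and 1.42 CPM in ZFmut, against 0.967, 0.845 and 0.791 CPM in WT. It was not called (log2 difference 0.54 ± 0.21, adjusted p = 0.0638), but was called without ZFmut replicate 1 (0.64, adjusted p = 0.0313). Per length, CDH2 remained far above CDH1 in every library: CDH1 made up 0.265, 0.294 and 0.235% of the summed RPKM (CPM divided by exon length in kilobases) of CDH1 and CDH2 in ZFmut, against 1.62, 1.59 and 1.25% in WT.

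Type II cadherins use a different adhesive interface and mark neural and mesenchymal populations. Of the 13, 5 were tested: 3 were lower, none was higher and 2 were not called. CDH24, a broadly expressed member (ENSG00000139880.19, chromosome 14, 23047062 to 23057538, minus strand), had 28.7, 31.0 and 33.3 CPM in ZFmut, against 50.8, 54.6 and 56.9 CPM in WT. It was 1.73-fold lower, with no overlap (log2 difference -0.79 ± 0.07, edgeR adjusted p = 6.09e-07), and it was the most abundant type II member per length (8.28 RPKM in ZFmut and 14.4 RPKM in WT). CDH22, a brain-enriched member, had 0.759, 0.751 and 0.501 CPM in ZFmut, against 1.17, 1.23 and 1.68 CPM in WT, and was 2.22-fold lower (log2 difference -1.15 ± 0.25, adjusted p = 0.00232). CDH18, another neural member, had 7.05, 6.97 and 7.26 CPM in ZFmut, against 8.74, 8.89 and 8.55 CPM in WT. Its libraries were tight within each group and 1.23-fold apart (log2 difference -0.29 ± 0.09, adjusted p = 0.0158). DESeq2 did not call it (adjusted p = 0.0683), nor did the fit without WT replicate 2 (-0.28, adjusted p = 0.0617). CDH11 (OB-cadherin, of mesenchymal cells) had 88.2, 83.8 and 86.2 CPM in ZFmut, against 83.6, 84.2 and 88.3 CPM in WT, with a log2 difference of 0.01 ± 0.05. CDH6 (K-cadherin, of kidney and brain) averaged 13.2 CPM in ZFmut and 13.1 CPM in WT. Neither CDH11 nor CDH6 was called in this fit (adjusted p = 0.881 and 0.990).

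CDH13 (T-cadherin) is tethered to the membrane by a lipid anchor and has no catenin-binding tail. It had 23.3, 24.0 and 25.9 CPM in ZFmut, against 18.8, 21.3 and 18.4 CPM in WT, with every ZFmut library above every WT library. It was 1.25-fold higher (log2 difference 0.32 ± 0.08, edgeR adjusted p = 0.00397). CDH26 was not called (-0.14 ± 0.35, adjusted p = 0.785).

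**Figure D2:**
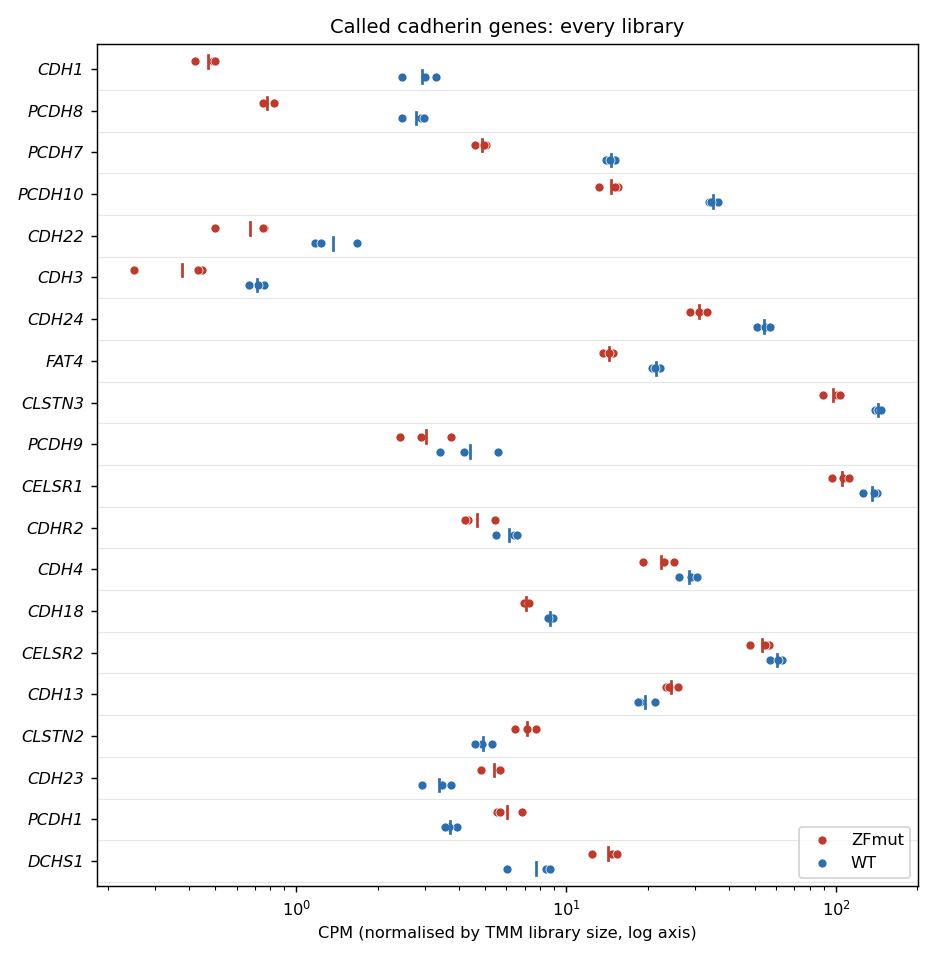
CPM (log axis) of the 20 called members, 1 row per gene, in each of the 3 ZFmut libraries (red) and 3 WT libraries (blue); a vertical bar marks each group's mean. In the CDH1 row the ZFmut points lie between 0.422 and 0.501 CPM and the WT points between 2.47 and 3.28 CPM.

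Among the cadherins of the tip links of sensory hair cells and of the intestinal brush border, 4 of 7 were tested, with 1 higher, 1 lower and 2 not called. CDH23, a tip-link component in hair cells, had 5.67, 4.84 and 5.67 CPM in ZFmut, against 3.45, 3.75 and 2.91 CPM in WT. It was 1.60-fold higher without overlap (log2 difference 0.67 ± 0.13, edgeR adjusted p = 0.000801). It shares 18.9% of its exonic sequence with C10orf105 on the other strand, so its count is less certain, although that gene averaged 0.0139 CPM in ZFmut and 0 in WT. CDHR2, a brush-border protocadherin, had 4.33, 4.21 and 5.43 CPM in ZFmut, against 6.42, 5.47 and 6.55 CPM in WT. The highest ZFmut and lowest WT libraries nearly met, and the 1.26-fold lower level was close to the threshold (log2 difference -0.34 ± 0.13, adjusted p = 0.0488). The call was lost in 8 of 15 alternative fits. Leaving out 1 library gave adjusted p = 0.112 without ZFmut replicate 1, 0.156 without ZFmut replicate 2, 0.122 without WT replicate 1 and 0.155 without WT replicate 3. Median-of-ratios scaling, upper-quartile scaling, DESeq2 and a stricter low-count filter gave 0.0539, 0.0507, 0.0887 and 0.0524. CDHR3 and CDHR5 were not called (log2 differences -0.05 and 0.11).

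The delta-1 protocadherins, which share a conserved tail motif that binds the phosphatase PP1α, were split, with PCDH7 and PCDH9 lower, PCDH1 higher and the other members untested. PCDH7 (ENSG00000169851.15, chromosome 4, 30720415 to 31146805, plus strand), known in neurons and in brain metastasis, had 5.04, 4.59 and 4.95 CPM in ZFmut, against 14.0, 15.2 and 14.5 CPM in WT. It averaged 4.86 ± 0.239 CPM in ZFmut and 14.6 ± 0.574 CPM in WT (SD, n = 3 each), a 2.99-fold lower level with the smallest adjusted p of the 36 members (log2 difference -1.58 ± 0.09, edgeR adjusted p = 7.22e-09). PCDH1, an adhesion protein of airway epithelium, had 5.53, 5.67 and 6.87 CPM in ZFmut, against 3.94, 3.68 and 3.55 CPM in WT. It was 1.66-fold higher without overlap (log2 difference 0.73 ± 0.12, adjusted p = 0.000262).

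PCDH9, of neurons and glia, had 3.75, 2.42 and 2.90 CPM in ZFmut, against 5.56, 3.41 and 4.18 CPM in WT. The highest ZFmut library lay above the lowest WT library, and the fold was 1.44 lower (log2 difference -0.52 ± 0.18, edgeR adjusted p = 0.0385). Correction for GC content and length took the log2 difference to -0.33 (adjusted p = 0.0907). The call was also lost without ZFmut replicate 2 (-0.43, adjusted p = 0.131), without ZFmut replicate 3 (-0.48, 0.162), without WT replicate 1 (-0.32, 0.173) and without WT replicate 3 (-0.54, 0.0681).

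All 5 delta-2 protocadherins, which can recruit the WAVE actin regulator through their tails, were tested: 2 were lower and 3 were not called. PCDH10 (OL-protocadherin, of axon tracts; chromosome 4, 133149315 to 133208606, plus strand) had 13.3, 15.5 and 15.2 CPM in ZFmut, against 36.6, 33.7 and 34.3 CPM in WT. It was 2.36-fold lower (log2 difference -1.24 ± 0.07, edgeR adjusted p = 1.60e-08). PCDH8, which takes part in activity-dependent N-cadherin uptake in rat neurons (chromosome 13, 52842889 to 52848641, minus strand), had 0.759, 0.751 and 0.825 CPM in ZFmut, against 2.45, 2.90 and 2.98 CPM in WT. It was 3.50-fold lower (log2 difference -1.81 ± 0.17, adjusted p = 1.83e-06). Both genes had ZFmut libraries that lay close together and well under the WT libraries. PCDH17, PCDH18 and PCDH19, the last a gene of an X-linked epilepsy, had log2 differences of -0.32, -0.01 and -0.17 and were not called (adjusted p = 0.312, 0.933 and 0.652). PCDH12, an endothelial protocadherin outside the delta groups, was not called either (-0.23, adjusted p = 0.336).

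Of the 6 FAT and Dachsous cadherins, 5 were tested: 1 was higher, 1 was lower and 3 were not called. DCHS1, a Dachsous ligand (chromosome 11, 6621323 to 6655854, minus strand), had 12.5, 14.8 and 15.4 CPM in ZFmut, against 6.01, 8.43 and 8.70 CPM in WT. It was 1.84-fold higher without overlap, the largest rise among the members (log2 difference 0.88 ± 0.12, edgeR adjusted p = 5.41e-05). FAT4, the FAT protein that binds DCHS1 (chromosome 4, 125316399 to 125492932, plus strand), had 14.9, 13.7 and 14.4 CPM in ZFmut, against 22.2, 20.8 and 21.3 CPM in WT. It was 1.49-fold lower (log2 difference -0.58 ± 0.07, adjusted p = 1.82e-05), so the ligand and its receptor differed in opposite directions. FAT1, a giant cadherin of cell migration, had 616, 549 and 550 CPM in ZFmut, against 564, 533 and 548 CPM in WT. Its groups overlapped and it was not called (log2 difference 0.06 ± 0.06, adjusted p = 0.440), although it was called higher after correction for GC content and length (0.14, adjusted p = 0.00470). FAT2 (log2 difference -0.22) and DCHS2 (0.15) were not called.

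All 3 CELSR cadherins were tested. CELSR1 (chromosome 22, 46360834 to 46537170, minus strand), the planar polarity cadherin of epithelia and of neural tube closure in mouse, had 96.2, 106 and 112 CPM in ZFmut, against 125, 142 and 138 CPM in WT. It was 1.29-fold lower (log2 difference -0.37 ± 0.06, edgeR adjusted p = 0.000458). CELSR2 had 48.1, 56.2 and 54.6 CPM in ZFmut, against 57.1, 62.7 and 60.8 CPM in WT, and was 1.14-fold lower (-0.18 ± 0.06, adjusted p = 0.0380). The CELSR2 call was lost in 6 of 15 alternative fits. Its adjusted p was 0.0546 with median-of-ratios scaling, 0.0749 in DESeq2, 0.135 without ZFmut replicate 1, 0.0747 without ZFmut replicate 3, 0.143 without WT replicate 2 and 0.117 without WT replicate 3. CELSR3, of axon tracts in mouse, had 32.6, 34.2 and 39.2 CPM in ZFmut, against 28.6, 33.4 and 32.1 CPM in WT. Its groups overlapped and it was not called (0.18 ± 0.08, adjusted p = 0.0951), but it was called higher without the low-count filter (0.19, adjusted p = 0.0418) and without ZFmut replicate 1 (0.25, adjusted p = 0.0146).

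The 3 calsyntenins took 3 courses. CLSTN3, a synapse organiser (chromosome 12, 7129698 to 7158945, plus strand), had 89.1, 100 and 103 CPM in ZFmut, against 139, 143 and 147 CPM in WT, and was 1.46-fold lower (log2 difference -0.55 ± 0.06, edgeR adjusted p = 6.29e-06). CLSTN2, linked to memory, had 7.72, 6.47 and 7.17 CPM in ZFmut, against 4.87, 4.59 and 5.29 CPM in WT, and was 1.46-fold higher (0.54 ± 0.11, adjusted p = 0.00123). Neither gene's groups overlapped. CLSTN1, a cargo adaptor of kinesin-1, had 283, 309 and 303 CPM in ZFmut, against 312, 329 and 325 CPM in WT, and was not called (-0.11 ± 0.05, adjusted p = 0.119). After correction for GC content and length it was called lower (-0.21, adjusted p = 4.04e-05).

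Levels between genes were compared as RPKM, which divides by exon length. CLSTN1 (52.5 RPKM in ZFmut and 56.7 RPKM in WT), FAT1 (35.3 and 33.9 RPKM) and CDH2 (28.8 and 31.2 RPKM) made up 62.3% of the summed RPKM of all members over the 6 libraries, and none of these 3 genes was called. CDH1, at 0.0763 RPKM in ZFmut and 0.472 RPKM in WT, ranked 26 among the 53 members. The summed RPKM of all members was 177, 179 and 183 in ZFmut, against 202, 204 and 207 in WT, a ratio of 0.879. Every ZFmut library was below every WT library. The ratio of group means was 0.539 for the delta-2 protocadherins (2.81 ± 0.159 RPKM in ZFmut and 5.22 ± 0.200 RPKM in WT; SD, n = 3 each) and 0.722 for type II cadherins (17.5 ± 0.521 and 24.2 ± 0.957 RPKM). It was 0.772 for the delta-1 protocadherins, 0.848 for the CELSR cadherins, 0.863 for the calsyntenins, 0.871 for the other protocadherins, 0.898 for type I cadherins and 0.975 for the tip-link and brush-border group. It was above 1 for the FAT and Dachsous group (1.04) and for the cadherins outside these groups, which include CDH13 (1.23). These sums give the most weight to the abundant genes of each subfamily, need not move with any single gene, and are given with no test.

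**Figure D3:**
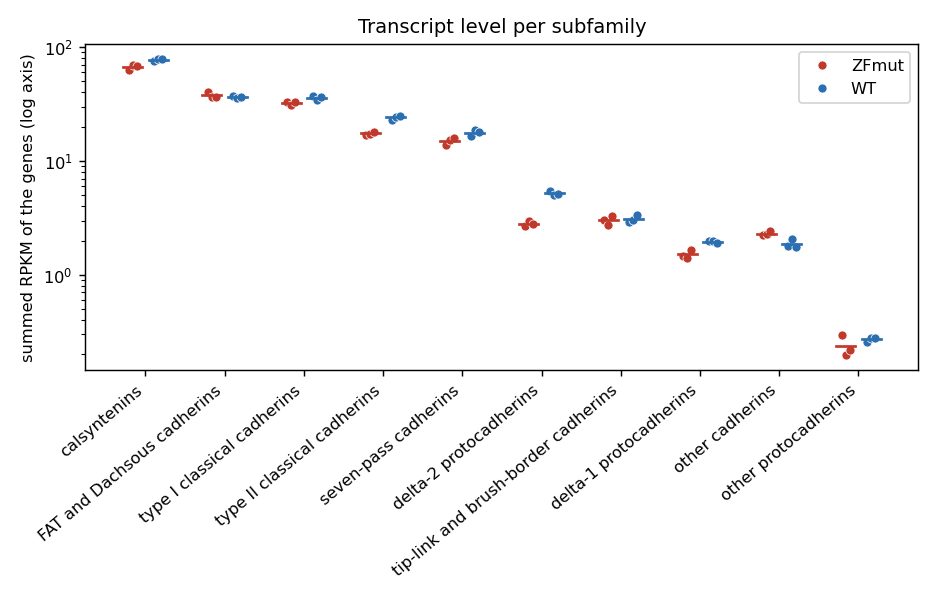
Summed RPKM of each subfamily in the 3 ZFmut and 3 WT libraries (points) with the group means (lines), on a log axis. The calsyntenins lie highest, with means of 67.1 RPKM in ZFmut and 77.7 RPKM in WT, and the delta-2 protocadherins show the widest gap, with means of 2.81 and 5.22 RPKM.

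The 17 untested members had at most 0.380 CPM in any library. CDH20, a type II member, had 0, 1 and 4 reads in ZFmut, against 11, 16 and 8 reads in WT. In a fit without the low-count filter it was lower (log2 difference -3.06 ± 0.71, edgeR adjusted p = 0.000226). FAT3 had no read in ZFmut and 2, 4 and 2 reads in WT, which that fit placed at an adjusted p of 0.0480. In the same fit CDH7, CDH8, CDH9, CDH10, CDH12, CDH17 and CDH19, of the type II and other groups, were not called, and neither were CDH5, CDH16, CDHR1, CDHR4, PCDH15 and PCDH20. CDH19, a cadherin of Schwann cell precursors, had 9 reads in ZFmut and 1 read in WT. PCDH11X and PCDH11Y, near-identical copies whose shared reads align to both, had no read in any library. A count of 0 allows up to 3 reads, or 0.0113 CPM over the 6 libraries, which covers counting error only. PCDH20 shares 95.8% of its exonic sequence with AL592490.1 on its own strand, so its single read cannot be assigned with certainty.

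Other tested genes within 500 kb of the members were examined for the same differences. The shares called over all 18683 genes tested were 17.2% higher and 18.4% lower. Around CDH1, 16 other genes were tested: 4 were higher in ZFmut, 1 (HAS3, a hyaluronan synthase, named after its value was seen) was lower and 11 were not called. Their log2 differences ranged from -0.54 to 0.44, against -2.69 for CDH1. PCDH7, FAT4 and PCDH9 had no other tested gene within that distance, and the 1 near PCDH10 was not called (-0.20). Around CDH24, 8 of 33 genes were higher and 1 was lower, and around DCHS1, 6 of 21 were higher and 1 was lower. Around PCDH1, 4 of 33 were higher and 11 were lower. Of these 11 genes, 7 were clustered protocadherins of the PCDHG cluster, named after their values were seen, whose variants share their last exons and whose counts are therefore uncertain.

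Catenins and their partners link cadherins to actin, and 22 of 24 were tested. Of these, 5 were higher, 7 were lower and 10 were not called (22.7% and 31.8%, against 17.2% and 18.4% of all genes tested). The median log2 difference was -0.07. CTNNB1 (β-catenin, which also acts in Wnt signalling) had 447, 452 and 422 CPM in ZFmut, against 437, 423 and 423 CPM in WT, and was not called (0.04 ± 0.05, edgeR adjusted p = 0.557). It was called higher after correction for GC content and length (0.12, adjusted p = 0.00947). CTNNA1 (α-catenin, which binds actin) had 429, 460 and 434 CPM in ZFmut, against 528, 503 and 514 CPM in WT, and was lower (-0.22 ± 0.05, adjusted p = 0.00297). CTNND2, the neural δ-catenin, had 15.1, 15.4 and 15.5 CPM in ZFmut, against 26.1, 28.3 and 25.2 CPM in WT, and was 1.73-fold lower (-0.79 ± 0.07, adjusted p = 8.87e-07). PTPRM, a phosphatase that binds cadherins, and LIMA1, an actin linker, were 1.56-fold and 1.40-fold lower. CTNND1, the widely expressed catenin of the membrane-near tail, was not called (-0.07, adjusted p = 0.297). The number of higher genes was 2 without ZFmut replicate 3, 3 without ZFmut replicate 2 and 2 without WT replicate 3.

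Transcription factors and splicing regulators of epithelial-mesenchymal change include direct regulators of CDH1, and 19 of 21 were tested. Of these, 4 were higher, 8 were lower and 7 were not called (21.1% and 42.1%, against 17.2% and 18.4% of all genes tested). The median log2 difference was -0.07. Among repressors of CDH1, SNAI2 had 34.1, 31.3 and 30.3 CPM in ZFmut, against 45.3, 45.4 and 43.3 CPM in WT, and was 1.41-fold lower (log2 difference -0.49 ± 0.06, edgeR adjusted p = 2.78e-05). ZEB1 had 37.3, 33.8 and 34.8 CPM in ZFmut, against 43.2, 38.4 and 40.2 CPM in WT, and was lower (-0.20 ± 0.06, adjusted p = 0.0263). The ZEB1 call was lost after correction for GC content and length (-0.07, adjusted p = 0.212), without ZFmut replicate 2 (-0.17, 0.0964), without ZFmut replicate 3 (-0.19, 0.106), without WT replicate 1 (-0.15, 0.134) and without WT replicate 3 (-0.21, 0.0709). SNAI1, TWIST1, TWIST2 and FOXC2, named after their values were seen, were the 4 higher genes (log2 differences 0.37, 0.34, 0.29 and 0.46). The SNAI1 call was lost without ZFmut replicate 2 (0.31, adjusted p = 0.0636) and without ZFmut replicate 3 (0.34, adjusted p = 0.0731). Without ZFmut replicate 3 the TWIST2 call (0.22, adjusted p = 0.0674) and the FOXC2 call (0.41, adjusted p = 0.0673) were also lost, which left 1 higher gene.

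Among factors that favour the epithelial state, ELF3 had 12.7, 16.4 and 15.6 CPM in ZFmut, against 32.8, 35.3 and 35.2 CPM in WT, and was 2.30-fold lower (log2 difference -1.20 ± 0.08, edgeR adjusted p = 7.75e-08). GRHL1 was 1.64-fold lower (-0.71 ± 0.13, adjusted p = 0.000820). GRHL3 and OVOL2, both named after their values were seen, were 2.49-fold and 1.75-fold lower (adjusted p = 0.00138 and 0.00109). The list thus holds lower genes on both sides, repressors of CDH1 and factors of the epithelial state.

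In the planar polarity and Fat-Dachsous pathway, 30 of 31 genes were tested: 6 were higher, 8 were lower and 16 were not called. The median log2 difference was -0.07. The lower share was 26.7%, against 18.4% of all genes tested. The higher share, 6 of 30, was close to the 17.2% called higher over all genes tested. FUZ, a planar polarity effector of cilia, had 13.4, 17.6 and 14.5 CPM in ZFmut, against 8.19, 8.36 and 8.42 CPM in WT, and was 1.81-fold higher (log2 difference 0.86 ± 0.10, edgeR adjusted p = 1.03e-05). VANGL2, a core polarity protein, had 51.1, 47.4 and 53.5 CPM in ZFmut, against 36.4, 37.0 and 36.7 CPM in WT, and was 1.39-fold higher (0.47 ± 0.06, adjusted p = 2.96e-05). Its paralog VANGL1, named after its value was seen, was 1.23-fold lower (-0.30, adjusted p = 0.000280). WWC1 (KIBRA, upstream in the Hippo pathway) was 1.43-fold higher. FJX1, the kinase-like regulator of FAT and Dachsous binding, was not called (0.12 ± 0.08, adjusted p = 0.235). It was called without ZFmut replicate 1 (0.23, adjusted p = 0.00336). Without ZFmut replicate 3 the list's counts were 3 higher and 5 lower, and 5 were lower after correction for GC content and length.

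Proteases that cut cadherins or activate those that do were split evenly, with 6 higher, 6 lower and 9 not called among 21 tested of 22. That is 28.6% in each direction, against 17.2% higher and 18.4% lower of all genes tested, and the median was 0.02. ADAM10, the sheddase of N-cadherin and E-cadherin, had 140, 115 and 134 CPM in ZFmut, against 174, 161 and 162 CPM in WT, and was 1.28-fold lower (log2 difference -0.35 ± 0.07, edgeR adjusted p = 0.00109). FURIN, a proprotein convertase, was 1.34-fold lower. MMP2, a secreted gelatinase, had 514, 589 and 590 CPM in ZFmut, against 346, 411 and 389 CPM in WT, and was 1.48-fold higher (0.56 ± 0.07, adjusted p = 2.11e-05). MMP7 (matrilysin), named after its value was seen, averaged 0.134 ± 0.0907 CPM in ZFmut and 0.651 ± 0.0477 CPM in WT (SD, n = 3 each), on 1 to 34 reads per library, and was 4.70-fold lower (-2.23 ± 0.37, adjusted p = 0.000311).

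**Figure D4:**
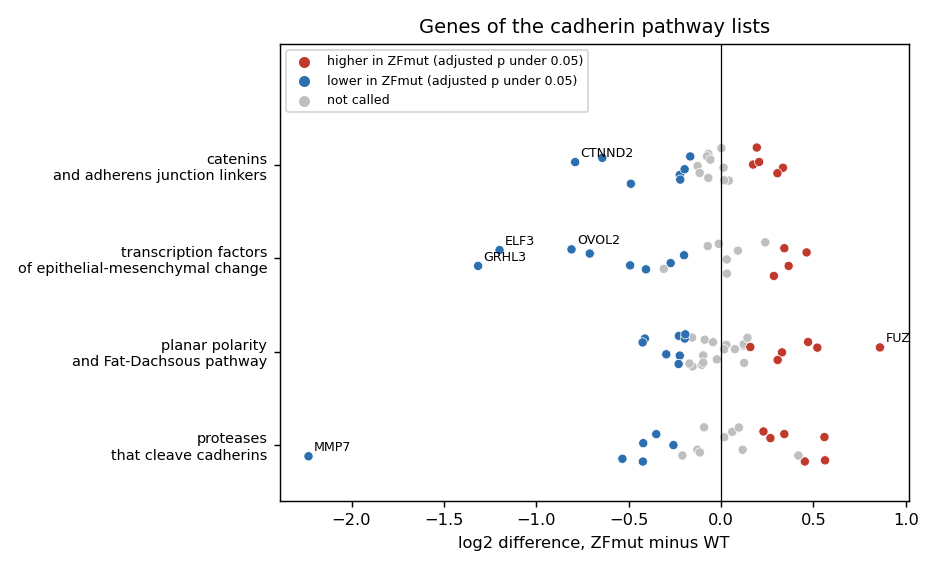
Log2 difference (ZFmut minus WT) of every tested gene of the 4 pathway lists, 1 point per gene, with called genes marked by direction. Higher and lower genes occur in each list, with 5 and 7 catenins and linkers, 4 and 8 factors of epithelial-mesenchymal change, 6 and 8 polarity genes, and 6 and 6 proteases.

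Markers of cell types were read beside these results. The 10 neural and medulloblastoma markers summed to 1085 to 1110 CPM in ZFmut and 1003 to 1055 CPM in WT. Most of that sum was VIM (663 CPM in ZFmut and 662 CPM in WT on average), which was not called. Of the 9 tested, 3 were higher (NES, SOX2 and MSX1) and 2 lower (GLI1 and PTCH1), and ATOH1 was at or near 0. SOX2 averaged 38.7 CPM in ZFmut and 21.6 CPM in WT. Over all genes tested, 17.2% were called higher and 18.4% lower. The 6 epithelial markers summed to 578 to 703 CPM in ZFmut and 366 to 406 CPM in WT, most of it from KRT8 (461 CPM in ZFmut and 263 CPM in WT on average). KRT8, KRT18 and CLDN4 were higher, the direction opposite to CDH1. EPCAM (0.388 CPM in ZFmut and 0.438 CPM in WT), ESRP1 (0.979 CPM in ZFmut and 1.29 CPM in WT) and KRT19 (0.950 CPM in ZFmut and 0.641 CPM in WT) were not called. The keratins are also made by many cultured cells. The 5 endothelial markers summed to 22.3 to 26.3 CPM in ZFmut and 14.7 to 15.5 CPM in WT, with TEK and PECAM1 higher. Most of this sum was TEK (19.9 CPM in ZFmut and 12.4 CPM in WT on average). The 4 leukocyte markers summed to 0.751 to 0.982 CPM in ZFmut and 0.829 to 1.27 CPM in WT with none called, and the 5 melanocyte and Schwann cell markers to 4.06 to 4.91 CPM in ZFmut and 5.82 to 6.21 CPM in WT. The part of these markers in the cadherin results was not tested.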

How the data were processed

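RNA of 6 libraries, 3 ZFmut and 3 WT, was analysed, grouped by their titles. The deposited values are raw read counts per gene, without normalisation. The submitters' processing notes name TopHat2 2.0.9 and cutadapt, HTSeq, DESeq2 and the GRCh38 build, in no stated order. Which annotation release and strand option served for counting is not given in the sources used here. The library kit does not mark strand, so reads of a gene and its antisense partner cannot be told apart. Summary lines without a gene were left out of library sizes. They held 7.71 to 8.08% of reads as ambiguous between genes, 5.04 to 6.56% as outside genes and 16.1 to 19.4% as aligned to several places, so reads of near-identical copies are not counted.

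The test was edgeR 4.0.16 in R 4.3.3 (TMM scaling, filterByExpr, two-sided quasi-likelihood F test, no covariates), with Benjamini-Hochberg adjustment over 18683 genes and a threshold of 0.05. Log2 differences are ZFmut minus WT with the standard error of the fit. The scripts were tested on simulated data. CPM used TMM library sizes, and RPKM divided by the exon union length of GENCODE release 29, from which symbols and positions came. Within groups, the counts of libraries differed by more than sampling noise (chi-square 3.42 to 8.00 per degree of freedom). This comparison looks only for repeated libraries and does not judge their quality. No library was left out of the main fit. The biological coefficient of variation was 6.27%.

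The members and lists were chosen with earlier results of these data known. All members were named. In each pathway list, the genes named were the 3 called genes with the smallest adjusted p and a few core genes. Genes outside this rule are said to be so, and 2 genes of the lists are not reported here. Alternatives were median-of-ratios and upper-quartile scaling, DESeq2 1.42.0, no filter, a stricter filter (at least 5 CPM in 3 libraries), the replicate number as a block, a correction for GC content and length with and without that block, ZBTB7B left out, and each library left out.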

Additional observations from a re-analysis of the deposited data

How the results depend on the processing

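Of the 20 called members, 14 kept their direction and call in every alternative fit that could test them (15 fits, or 14 for CDH1, CDH22, CDH23 and PCDH8, which do not pass the stricter low-count filter). The calls on CDH3, CDH4, CDH18, CDHR2, PCDH9 and CELSR2 were lost in some, with no change of direction. Among the tested members and named pathway genes that were not called, CDH6, CDHR3, CDHR5, PCDH18, PCDH19 and FJX1 had log2 differences whose sign varied between fits. The pathway genes not named were not examined for this. With single libraries left out, 5 to 7 members were higher and 10 to 13 lower. The range was 2 to 5 higher and 6 to 8 lower for catenins and linkers, 1 to 4 and 6 to 8 for factors of epithelial-mesenchymal change, 3 to 9 and 5 to 10 for polarity genes, and 5 to 9 and 6 to 7 for proteases. The stricter low-count filter left 22 members tested, 9 of them lower, and 5 lower factors of epithelial-mesenchymal change, with fewer genes tested. Correction for GC content and length left 5 lower polarity genes, and the cause was not tested. Same-numbered libraries deviated together only weakly (correlations 0.164, 0.0770 and 0.0635), although each correlated best with its own number, a hint from the data and not from the design. With the replicate block 6 members were higher and 17 lower, and CDH2 (-0.12, edgeR adjusted p = 0.00540), CLSTN1 (-0.11, 0.00614), CELSR3 (0.17, 0.00877) and FJX1 (0.12, 0.0195) were then called. With the block and the GC and length correction together, 7 were higher and 16 lower, and CDH11 was called (0.08, adjusted p = 0.0457). Depth limits the members under 1 CPM, for which a library holds few reads.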
